A study of Mus musculus with 9 samples.

Results

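The transcript of p53 (*Trp53*) and the transcripts of 9 genes that p53 is known to switch on, *Cdkn1a*, *Mdm2*, *Ccng1*, *Gdf15*, *Trp53inp1*, *Phlda3*, *Eda2r*, *Zmat3* and *Sesn1*, were followed in mouse skin after epidermal loss of *Supt6*, the gene of the histone chaperone and transcription elongation factor SPT6. The 10 genes were chosen by name, and each had a single entry among the 17943 genes of the deposited table. Bulk RNA-Seq libraries came from 5 control and 4 *Supt6*-KO mice, all collected on day 10 after the last injection. The *Supt6*-KO mice were K14-CreERT; *Supt6* fl/fl animals given tamoxifen, in which Cre is driven by the Keratin 14 promoter of basal keratinocytes, so the deletion is directed to that lineage and not to the other cells of the skin. According to the study's methods the controls were *Supt6* fl/fl mice given corn oil, whereas the sample labels call them WT, and age is not among the labels. Both groups carried the floxed alleles by that account, but Cre, tamoxifen and the deletion differed together between them and cannot be told apart. The labels give the tissue as ear and the study's text as dorsal skin.

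p53 is a transcription factor that is kept scarce by MDM2, a ubiquitin ligase that marks it for degradation. When DNA is damaged or ribosomes or transcription are disturbed, p53 accumulates and binds a pair of short repeats near its targets, which stop the cell cycle, repair DNA, adjust metabolism or kill the cell. *Mdm2* is itself such a target, which closes a feedback loop, and in the epidermis p53 is best known for its response to ultraviolet light. p53 is controlled largely at the level of the protein, which was not measured here.

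Among the 10 transcripts the direction was split. *Mdm2*, *Eda2r*, *Ccng1* and *Phlda3* were higher in *Supt6*-KO skin, *Trp53*, *Cdkn1a* and *Zmat3* were lower, and *Sesn1*, *Trp53inp1* and *Gdf15* did not pass the test. Over all genes tested, 34.1% were higher and 36.8% lower. The largest rises were those of *Eda2r* (2.797-fold) and *Mdm2* (2.46-fold), while *Cdkn1a*, the gene of the cell cycle inhibitor p21, stood at 66.8% of its control level. Sizes and calls depended on the scaling. With library totals in place of TMM factors the log2 fold changes of *Eda2r* (1.48), *Mdm2* (1.3) and *Cdkn1a* (-0.58) became 0.79, 0.59 and -1.25, *Ccng1* and *Phlda3* lost their calls, and *Sesn1*, *Trp53inp1* and *Gdf15* were called lower. These calls were made by edgeR's quasi-likelihood test on 16428 genes, with p-values adjusted by Benjamini and Hochberg's method over all of them and a threshold of 0.05. Values below are CPM, the counts of a gene scaled to an equal library size with TMM factors, given for mice 1 to 5 of the controls and 1 to 4 of the *Supt6*-KO group in that order.

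The *Cdkn1a* and *Ccng1* promoters are shown first because they hold letters close to the sequence that p53 is known to bind, while the transcripts moved in opposite directions. RefSeq promoter sequences (GRCm38.p6, from 250 bases before to 50 bases after the annotated start) were available for 8 of the 10 genes, all but *Trp53inp1* and *Zmat3*. They were searched on both strands for the p53 half-site consensus of 10 letters and for the p53 full-site consensus, which is 2 half-sites side by side with at most 1 mismatch over its 20 letters. A full-site match was found in the promoters of *Cdkn1a* and *Ccng1*, and each is printed below on its gene's strand with the 20 matched letters in capitals.
Cdkn1a: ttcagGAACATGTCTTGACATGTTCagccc
Ccng1: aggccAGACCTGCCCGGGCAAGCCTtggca
The capitals of *Cdkn1a* lie on the forward strand at chr17:29090928-29090947, from 51 to 32 bases before the start, and those of *Ccng1* on the reverse strand at chr11:40755462-40755481, from 195 to 176 bases before it. Single half-sites were matched in *Mdm2*, on the reverse strand at chr10:117710935-117710944, and in *Trp53*, on the forward strand at chr11:69580284-69580293, again with the matched letters in capitals.
Mdm2: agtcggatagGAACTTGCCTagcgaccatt
Trp53: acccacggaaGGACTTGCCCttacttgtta

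Over all 27025 RefSeq promoters of this length, 2261 (8.37%) held a half-site and 25 (0.0925%) a full site, against 4 and 2 of the 8 promoters searched here. Of the 25 genes with a full site, 8 were tested, and 3 of these were higher, 3 lower and 2 not called, shares near the 34.1%, 36.8% and 29.0% of all genes. *Cdkn1a* and *Ccng1* are among these 8. A match describes letters in this window and not binding, and sites outside the window were not searched.

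*Supt6* (chromosome 11, 78206746 to 78245987, GRCm38), the deleted gene, was measured first as a check of the labels. It was at 74.5, 56.6, 63.6, 91.1 and 96.7 CPM in the controls and at 28.6, 24.1, 21.9 and 28.4 CPM in the *Supt6*-KO mice. No *Supt6*-KO mouse reached the lowest control, and *Supt6* had a log2 fold change of -1.57 ± 0.18 (SE being the standard error, adjusted p = 1.3e-05, edgeR's quasi-likelihood test). The value was -0.83 after a correction for transcript length and -2.26 with library totals in place of TMM factors, past the threshold in both. *Supt6* overlaps *Sdf2* on the other strand by 242 bases.

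The libraries held 29627341 to 30491197 estimated counts in the controls and 30597189 to 30967107 in the *Supt6*-KO mice. The TMM factors were 1.244, 1.198, 1.219, 1.239 and 1.315 in the controls and 0.781, 0.674, 0.706 and 0.91 in the *Supt6*-KO mice. The 50 most abundant genes took 14.54% to 16.55% of the counts in the controls, against 23.88%, 27.89%, 26.26% and 17.00% in the *Supt6*-KO mice. *Supt6*-KO mouse 4 thus lay closest to the controls on both measures. On the second principal component, which held 7.9% of the variance, *Supt6*-KO mouse 4 (47.6) and control mouse 5 (50.3) stood apart from the other 7 mice (-24.9 to -0.2). Results are therefore also given without these libraries. In whole skin, fewer cells of a type and less RNA per cell cannot be told apart.

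Of all genes tested, 5607 (34.1%) were higher and 6050 (36.8%) lower, so 71.0% were called in one direction or the other. The 4 higher and 3 lower of the 10 are a share near this background, as are the 3 not called beside 29.0% of all genes. With at least a 2-fold change, 2 were higher and 1 lower, against 20.9% and 24.9% of all genes. The median log2 fold change of the 10 was -0.12, beside -0.07 over all genes tested. With library totals alone in place of TMM factors the median over all genes moved to -0.76, and 2 of the 10 were then higher and 6 lower, beside 2771 higher and 8970 lower genes in all. The calls of *Mdm2*, *Eda2r*, *Cdkn1a*, *Trp53* and *Zmat3* held under both scalings, with log2 fold changes on library totals of -1.5 for *Trp53* and -1.74 for *Zmat3*. After the correction for transcript length *Zmat3* (-0.2) and *Phlda3* (0.04) lost their calls, and *Gdf15* (-1.13) was called lower. Without control mouse 5 and *Supt6*-KO mouse 4 together, an alternative chosen after seeing the data, the log2 fold changes were -1.25 for *Trp53*, -0.72 for *Cdkn1a*, -1.15 for *Zmat3*, 1.33 for *Mdm2*, 1.44 for *Eda2r*, 0.64 for *Ccng1* and 0.47 for *Phlda3*, and all 7 passed edgeR's test.

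**Figure D1:**
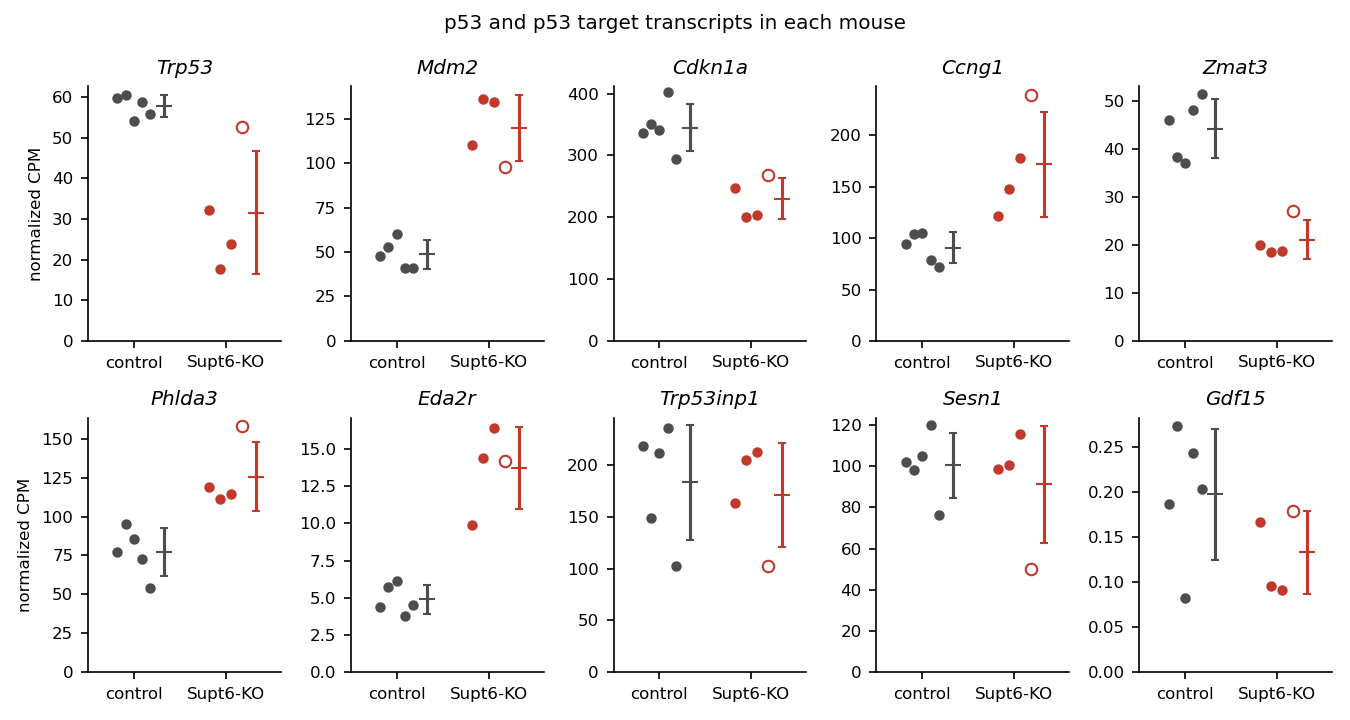
Normalized CPM (vertical axes, starting at 0) of *Trp53* and 9 p53 targets in each of 5 control mice (grey) and 4 *Supt6*-KO mice (red), with the mean and SD beside the points. The open circle is *Supt6*-KO mouse 4, and the groups do not overlap for 7 genes, the 4 that were higher and the 3 that were lower.

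p53 itself comes first. *Trp53* (NCBI gene 22059, chromosome 11, 69580359 to 69591873, forward strand) had 59.7, 60.4, 54.0, 58.7 and 55.9 CPM in the controls and 32.1, 17.8, 23.7 and 52.6 CPM in the *Supt6*-KO mice. The controls were tightly grouped, and all 4 *Supt6*-KO mice lay below them, mouse 4 only just. The log2 fold change was -0.87 ± 0.25 (SE, adjusted p = 0.0091, edgeR's quasi-likelihood test), from 57.7 ± 2.73 CPM in the 5 controls to 31.6 ± 15.2 CPM in the 4 *Supt6*-KO mice (SD). With *Supt6*-KO mouse 4 left out it was -1.24 (adjusted p = 3.6e-05, edgeR). The coefficient of variation was 4.72% in the controls and 48.2% in the *Supt6*-KO mice, the widest spread among the *Supt6*-KO values of the 10 genes.

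The feedback inhibitor moved the other way. *Mdm2* (NCBI gene 17246, chromosome 10, 117688875 to 117710758, reverse strand) had 47.7, 53.02, 60.4, 41.0 and 41.2 CPM in the controls and 110.3, 136.3, 134.4 and 97.9 CPM in the *Supt6*-KO mice. The lowest *Supt6*-KO mouse was well above the highest control. The log2 fold change was 1.3 ± 0.15 (SE, adjusted p = 1.7e-05, edgeR's quasi-likelihood test). Each of the 7 genes called was also separated between the groups in normalized CPM, with an exact permutation p of 0.0159 (two-sided, over mice), the smallest value that 5 against 4 allow. The separation and this p rest on the same TMM factors, and the unscaled counts of *Ccng1* and *Phlda3* overlapped between the groups. Over all genes, 28.9% were separated upwards and 31.8% downwards.

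*Ccng1* encodes cyclin G1, which recruits a phosphatase to MDM2. *Ccng1* (NCBI gene 12450, chromosome 11, 40748552 to 40755311, reverse strand) had 94.4, 104.4, 104.5, 78.8 and 72.2 CPM in the controls and 121.6, 147.3, 178.1 and 239.6 CPM in the *Supt6*-KO mice. Its *Supt6*-KO values ranged widely, with the highest in mouse 4. The log2 fold change was 0.92 ± 0.20 (SE, adjusted p = 0.0013, edgeR's quasi-likelihood test), and 0.71 (adjusted p = 0.0016) without mouse 4. With library totals alone it was 0.26 (adjusted p = 0.337).

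The main arrest gene fell. *Cdkn1a* (NCBI gene 12575, chromosome 17, 29090976 to 29100727, forward strand) encodes p21, which blocks cyclin-dependent kinases. It had 335.7, 351.0, 341.4, 401.9 and 294.4 CPM in the controls and 247.6, 200.4, 204.2 and 268.8 CPM in the *Supt6*-KO mice. The gap between the lowest control and the highest *Supt6*-KO mouse was small, but no value crossed it. The log2 fold change was -0.58 ± 0.14 (SE, adjusted p = 0.0032, edgeR's quasi-likelihood test), and -0.67 (adjusted p = 0.00066) without *Supt6*-KO mouse 4. An annotated transcript of unknown protein coding status lies on the other strand over 1046 bases of *Cdkn1a*, and since the use of strand in the counting is not stated, reads from the 2 strands cannot be told apart. A transcript of the same kind lies on the same strand over 2584 bases of *Sesn1*.

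The other members called higher with TMM factors were *Eda2r* and *Phlda3*. *Eda2r* (NCBI gene 245527, chromosome X, 97333840 to 97377216, reverse strand), a receptor of the TNF receptor family for a form of ectodysplasin, had 4.39, 5.70, 6.12, 3.76 and 4.53 CPM in the controls and 9.86, 14.4, 16.4 and 14.2 CPM in the *Supt6*-KO mice. All controls lay below the lowest *Supt6*-KO mouse, and the log2 fold change was 1.48 ± 0.20 (SE, adjusted p = 4e-05, edgeR's quasi-likelihood test). *Phlda3* (NCBI gene 27280, chromosome 1, 135766119 to 135769136, forward strand), whose small lipid-binding protein restrains AKT signalling, had 77.1, 95.2, 85.5, 73.02 and 54.2 CPM in the controls and 118.9, 111.0, 114.3 and 158.3 CPM in the *Supt6*-KO mice. The rise of *Phlda3* was modest, with 3 close *Supt6*-KO values and a higher one in mouse 4. Its log2 fold change was 0.71 ± 0.17 (SE, adjusted p = 0.003, edgeR's quasi-likelihood test), but 0.04 (adjusted p = 0.859) with library totals and 0.04 (adjusted p = 0.854) after the correction for transcript length.

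*Zmat3* encodes a zinc-finger protein that binds RNA. *Zmat3* (NCBI gene 22401, chromosome 3, 32334792 to 32366014, reverse strand) had 46.0, 38.4, 37.1, 48.0 and 51.4 CPM in the controls and 19.9, 18.5, 18.7 and 27.1 CPM in the *Supt6*-KO mice. The controls were all above the *Supt6*-KO mice, of which the first 3 lay close together. The log2 fold change was -1.07 ± 0.15 (SE, adjusted p = 8e-05, edgeR's quasi-likelihood test), but -0.20 (adjusted p = 0.139) after the correction for transcript length.

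The remaining 3 genes did not pass the test with TMM factors, but all 3 were called lower with library totals. *Sesn1* (NCBI gene 140742, chromosome 10, 41809935 to 41908424, forward strand), a sestrin that restrains mTORC1 under stress, had 101.8, 98.4, 104.9, 120.1 and 76.5 CPM in the controls and 98.7, 100.5, 115.4 and 50.2 CPM in the *Supt6*-KO mice. Only *Supt6*-KO mouse 4 lay outside the controls' range, and the log2 fold change was -0.14 (95% interval -0.56 to 0.29, adjusted p = 0.582, edgeR's quasi-likelihood test), against -0.87 (adjusted p = 0.0011) with library totals. *Trp53inp1* (NCBI gene 60599, chromosome 4, 11156431 to 11174379, forward strand), which encodes a stress-induced partner of p53, had 217.8, 148.8, 211.2, 235.1 and 102.9 CPM in the controls and 163.4, 204.4, 211.9 and 102.7 CPM in the *Supt6*-KO mice. The 2 groups overlapped almost wholly, with a log2 fold change of -0.10 (95% interval -0.62 to 0.42, adjusted p = 0.743, edgeR's quasi-likelihood test), against -0.83 (adjusted p = 0.0072) with library totals.

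*Gdf15* encodes a secreted stress cytokine of the TGF-beta superfamily and was near the limit of detection. The control libraries held 7, 10, 3, 9 and 8 counts of *Gdf15* (NCBI gene 23886, chromosome 8, 70629393 to 70632456, reverse strand), and the *Supt6*-KO libraries 4, 2, 2 and 5. These counts overlapped, and the log2 fold change was -0.53 (95% interval -1.42 to 0.36, adjusted p = 0.314, edgeR's quasi-likelihood test). It was -1.19 (adjusted p = 0.041) with library totals and -1.13 (adjusted p = 0.047) after the length correction, so the call of *Gdf15* depended on the processing.

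Levels of different genes were compared per length, in TPM, which also divides by transcript length and which the authors deposited for the 5 controls and *Supt6*-KO mouse 4. In control skin *Cdkn1a* led with 342.8 ± 45.0 TPM (SD, n = 5), ahead of *Phlda3* at 104.8 ± 9.53. *Sesn1* (67.8 ± 10.7), *Trp53* (62.98 ± 7.65), *Trp53inp1* (56.5 ± 16.7) and *Ccng1* (44.9 ± 2.81) followed, and each of these did not differ from its neighbour beyond their SDs. *Mdm2* (27.7 ± 2.54), *Zmat3* (9.52 ± 2.48), *Eda2r* (1.92 ± 0.276) and *Gdf15* (0.278 ± 0.0971) were each below the one before by more than their SDs. In *Supt6*-KO mouse 4 the TPM of *Trp53* (28.8), *Cdkn1a* (134.7) and *Zmat3* (2.88) were below every control. So were those of *Sesn1* (17.1, against 58.2 to 85.3) and *Trp53inp1* (16.0, against 38.2 to 76.2). The TPM of *Mdm2* (28.2) and *Phlda3* (110.6) lay within the controls (24.5 to 31.5 and 89.2 to 115.2), although their normalized CPM lay above them, and so did that of *Gdf15* (0.14, against 0.11 to 0.34). *Ccng1* (60.1) and *Eda2r* (3.35) were above every control. TPM carries no TMM factor, and with TPM for 1 *Supt6*-KO mouse no test was made.

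**Figure D2:**
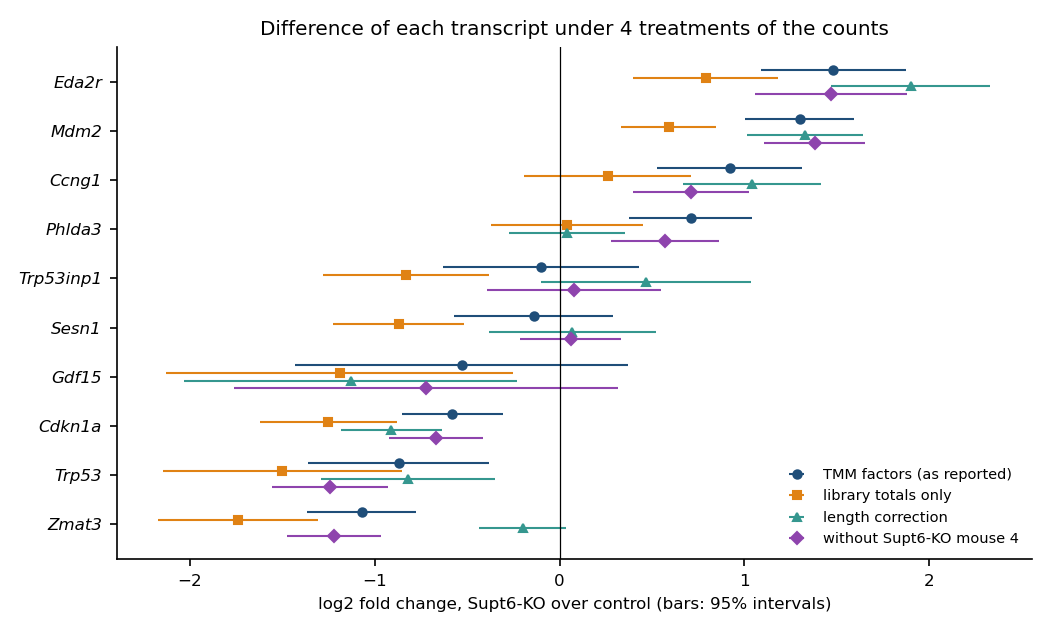
Log2 fold change of each gene, *Supt6*-KO over control (horizontal axis, bars of 95% intervals), with TMM factors, with library totals alone, after a correction for transcript length and without *Supt6*-KO mouse 4. *Eda2r* and *Mdm2* stay right of 0 and *Cdkn1a* and *Trp53* left of it in all 4, whereas the bars of *Ccng1*, *Phlda3* and *Zmat3* reach 0 in at least 1.

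Since a gene's change in these libraries varied with the length of its transcript, the 10 genes are also given beside genes of like length. Among genes with a mean of at least 1 CPM, the median log2 fold change was 0.86 for longest transcripts under 2000 bases, 0.10 from 2000 to 4000 bases, -0.38 from 4000 to 6000 bases and -0.89 from 6000 bases upwards. *Phlda3*, at 1435 bases, and *Zmat3*, at 7797 bases, lay near the median of their class. *Eda2r*, at 4752 bases, was higher where its class was lower, and *Cdkn1a*, at 2080 bases, and *Trp53*, at 3275 bases, were lower where theirs was slightly higher. *Mdm2* (3145 bases) and *Ccng1* (3512 bases) lay above the same class. After the length correction the log2 fold changes were 1.90 for *Eda2r*, 1.33 for *Mdm2*, 1.04 for *Ccng1*, -0.91 for *Cdkn1a* and -0.82 for *Trp53*, each with an adjusted p of 0.0097 or less from edgeR's quasi-likelihood test.

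**Figure D3:**
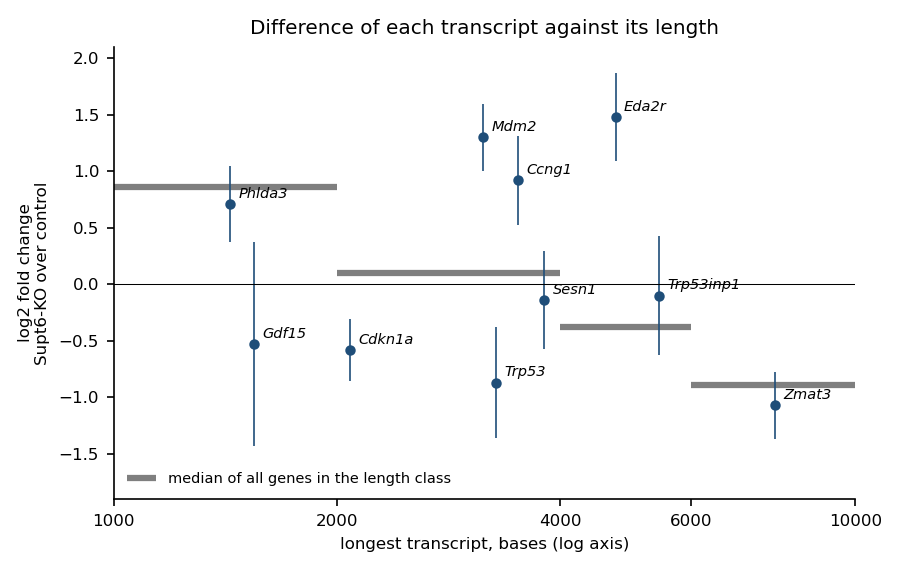
Log2 fold change, *Supt6*-KO over control, of the 10 genes (points, bars of 95% intervals) against the length of the longest transcript in bases (log axis). Grey lines give the median of all genes with at least 1 CPM in each length class, from 0.86 in the shortest to -0.89 in the longest, and *Phlda3* and *Zmat3* lie close to their lines.

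Ratios of counts within a library do not depend on the scaling between libraries. The pairs below were picked after their values were seen and are descriptions. The ratio of *Mdm2* to *Cdkn1a* counts was 0.142, 0.151, 0.177, 0.102 and 0.140 in the controls and 0.446, 0.680, 0.658 and 0.364 in the *Supt6*-KO mice, so it was higher in each *Supt6*-KO mouse than in any control. The ratio of *Mdm2* to *Trp53* counts was 0.846 ± 0.167 (SD, n = 5) in the controls and 4.65 ± 2.54 (SD, n = 4) in the *Supt6*-KO mice, where it ran from 1.86 in mouse 4 to 7.66 in mouse 2. The ratio of *Eda2r* to *Zmat3* was 0.115 ± 0.0388 in the controls and 0.668 ± 0.189 in the *Supt6*-KO mice, and that of *Ccng1* to *Cdkn1a* was 0.265 ± 0.0451 and 0.747 ± 0.184. A ratio shows unequal change and not which transcript moved.

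**Figure D4:**
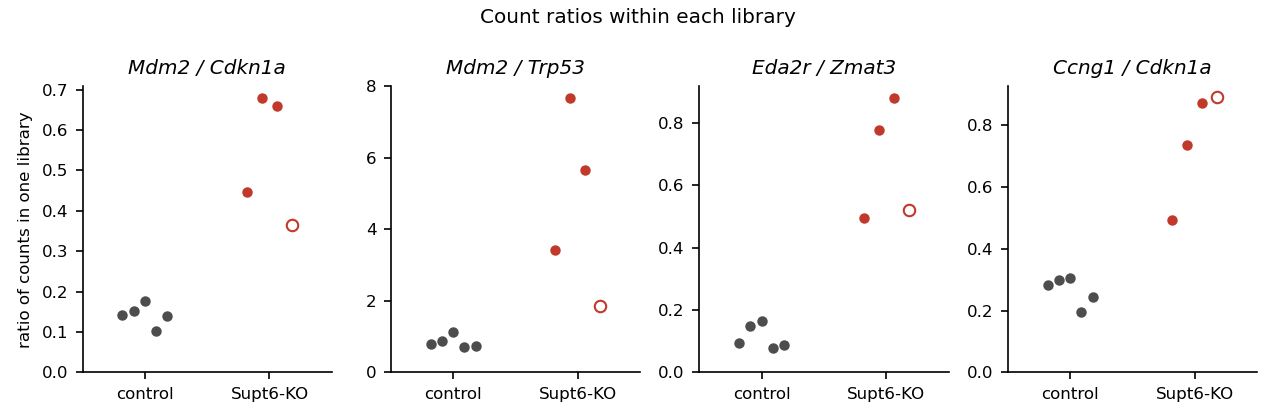
Ratios of the counts of 2 p53 pathway genes in the same library (vertical axes, starting at 0) for 5 control (grey) and 4 *Supt6*-KO mice (red, open circle for mouse 4). In each of the 4 panels every *Supt6*-KO mouse lies above every control, as with *Mdm2* over *Cdkn1a*, at 0.102 to 0.177 against 0.364 to 0.680.

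Of 16 genes that control p53, 5 were higher, 6 lower and 5 not called, shares near the 34.1% higher and 36.8% lower of all genes. Their median log2 fold change was 0.14 beside -0.07 over all genes, and -0.54 beside -0.76 with library totals. *Rchy1*, a ubiquitin ligase for p53, averaged 40.7 ± 5.97 CPM (SD) in the controls and 119.4 ± 11.3 CPM in the *Supt6*-KO mice, a log2 fold change of 1.55 (adjusted p = 1.8e-06, edgeR). The checkpoint kinases *Chek2* (log2 fold change 1.38) and *Chek1* (1.16) were higher too, as were *Kat5* (0.35), an acetyltransferase of the damage response, and *Cdkn2a*, which had 16 counts over all 9 mice. *Crebbp*, an acetyltransferase that acts as a p53 coactivator, fell from 17.1 ± 4.75 to 2.46 ± 0.845 CPM, with a log2 fold change of -2.79 (adjusted p = 7.4e-06, edgeR). Its relative *Ep300* (-1.0) and *Trp53bp1* (-0.94), a double-strand break response protein, were also lower. The other lower genes were *Atm* (-0.75), *Usp7* (-0.68) and *Mdm4* (-0.54). *Ppm1d*, *Cop1*, *Atr*, *Hipk2* and *Sirt1* did not pass the test. After the length correction 6 of the 16 genes were higher and 1 lower, beside 5611 higher and 5533 lower of all genes. With library totals 3 were higher and 12 lower, beside 2771 higher and 8970 lower of the 16428 genes.

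Both relatives of p53 were lower, with library totals and after the length correction as well. *Trp63*, the master regulator of the epidermal lineage, went from 480.4 ± 68.1 to 207.0 ± 8.18 CPM (log2 fold change -1.21, adjusted p = 1.5e-05, edgeR). *Trp73* went from 12.2 ± 1.10 to 6.69 ± 1.22 CPM (log2 fold change -0.87, adjusted p = 0.0004, edgeR).

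Another 43 targets of p53 were examined by role. Of these, 42 were tested, and 21 were higher, 9 lower and 12 not called, beside 34.1% higher and 36.8% lower of all genes. The median log2 fold change was 0.42 beside -0.07 over all genes, and turned to -0.28 beside -0.76 with library totals. With library totals alone the counts were 10 higher and 17 lower, beside 2771 higher and 8970 lower of the 16428 genes. Without *Supt6*-KO mouse 4 they were 22 and 10, beside 5729 and 6392 of all genes. *Spata18*, a gene of mitochondrial quality control, had 5 counts over all 9 mice and was not tested.

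With TMM factors the cell death targets had members that rose and none that fell. With library totals 5 were higher and 3 lower, beside 2771 higher and 8970 lower of the 16428 genes. After the length correction 8 were higher and 1 lower, beside 5611 and 5533 of all genes. Of 14 such genes, 9 were higher, 0 lower and 5 (*Bbc3*, *Tnfrsf10b*, *Apaf1*, *Pidd1* and *Bid*) did not pass edgeR's test, beside 34.1% higher and 36.8% lower of all genes. The median log2 fold change was 0.72, and 0.00 with library totals, beside -0.07 and -0.76 over all genes. At an unadjusted p under 0.05 the counts were 10 and 0, and by DESeq2 10 and 0. *Pmaip1*, which encodes the BH3-only protein NOXA, rose from 3.62 ± 0.790 to 62.1 ± 32.1 CPM, a log2 fold change of 4.10 (adjusted p = 1.1e-06, edgeR). *Siva1*, an apoptosis-inducing factor, had a log2 fold change of 1.78. *Perp*, a p53 and p63 target that is also a desmosome protein of the epidermis, rose from 4445 ± 929 to 13050 ± 3045 CPM, a log2 fold change of 1.55.

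Of 7 arrest targets 4 were higher and 0 lower by edgeR (5 and 0 at an unadjusted p under 0.05, 4 and 0 by DESeq2), beside 34.1% higher and 36.8% lower of all genes. With library totals 2 were higher and 1 lower, beside 2771 higher and 8970 lower of the 16428 genes. The median log2 fold change was 1.08, but 0.67 without *Supt6*-KO mouse 4, 0.54 after the length correction and 0.37 with library totals. *Gadd45a*, a stress sensor that slows entry into mitosis, rose from 12.7 ± 1.59 to 43.7 ± 11.1 CPM (log2 fold change 1.79, adjusted p = 6.9e-06, edgeR). *Plk2*, a polo-like kinase, had a log2 fold change of 1.62, with 138.5 CPM in *Supt6*-KO mouse 4 against 25.9 to 35.9 CPM in the other 3, and a log2 fold change of 0.67 without mouse 4. *Sfn*, the epidermal 14-3-3 sigma, and *Plk3*, another polo-like kinase, both had a log2 fold change of 1.08. *Btg2*, *Rprm* and *Ptprv* did not pass the test. *Cdkn1a*, the best known arrest target, thus moved against these 4 genes.

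Targets in DNA repair, metabolism and other roles had 2, 4 and 2 genes higher and 2, 4 and 3 lower, beside 34.1% higher and 36.8% lower of all genes. With library totals 0, 2 and 1 were higher and 3, 6 and 4 lower, beside 2771 higher and 8970 lower of the 16428 genes. Of 5 repair genes, *Polk* (log2 fold change 0.57) and *Rrm2b* (0.48) were higher, *Xpc* (-1.37) and *Ercc5* (-0.58) lower, and *Ddb2* was not called. Of 10 metabolic targets, 4 were higher and 4 lower, but 2 and 2 after the length correction, beside 5611 and 5533 of all genes. *Gls2*, a mitochondrial glutaminase, had a log2 fold change of 2.84, *Gpx1*, a glutathione peroxidase, of 2.52, *Sco2*, a copper chaperone of cytochrome oxidase, of 0.69 and *Fdxr*, a mitochondrial reductase, of 0.39. *Lpin1*, a phosphatidate phosphatase, fell from 31.7 ± 6.16 to 2.59 ± 0.807 CPM, with a log2 fold change of -3.61 (adjusted p = 4.8e-07, edgeR), and *Pank1*, which starts coenzyme A synthesis, *Cpt1c* and *Aldh4a1* had log2 fold changes of -1.15, -0.79 and -0.35. *Tigar* and *Sesn2* did not pass the test. Of the 6 tested targets in other roles, *Psrc1* (1.69) and *Rap2b* (1.09) were higher, *Ak1* (-2.62), *Pml* (-2.09) and *Abhd4* (-1.27) were lower, and *Dcxr* was not called.

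p21 is known to lower mitotic genes through the DREAM repressor complex, so 14 genes of that kind were examined beside *Cdkn1a*. Of these, 10 were higher and 0 lower by edgeR (11 and 0 at an unadjusted p under 0.05 and by DESeq2), beside 34.1% higher and 36.8% lower of all genes. The counts were also 10 and 0 with library totals, beside 2771 higher and 8970 lower of the 16428 genes. After the length correction they were 13 and 0, beside 5611 and 5533 of all genes. The median log2 fold change of the 14 genes was 2.01, but 1.18 without *Supt6*-KO mouse 4 and 1.43 with library totals. *Birc5*, the gene of survivin, had a log2 fold change of 2.98 (adjusted p = 1.8e-05, edgeR). *Ccnb1*, cyclin B1, had 11.3, 8.60, 11.1, 10.0 and 13.7 CPM in the controls and 25.3, 21.3, 43.3 and 148.2 CPM in the *Supt6*-KO mice. Mouse 4 thus stood far above the other *Supt6*-KO mice, which were still above the controls. *Aurka*, a spindle kinase, had 7.24 to 62.9 CPM in the *Supt6*-KO mice, the highest in mouse 4, beside 4.36 ± 0.331 CPM in the controls, a log2 fold change of 2.48. Without mouse 4 the log2 fold changes of *Ccnb1* and *Aurka* were 1.45 and 1.37. *Plk1*, *Mybl2*, *Top2a* and *Mki67* did not pass the test. Without mouse 4 their log2 fold changes were -0.69, 0.08, -0.19 and -0.1 in that order, again without passing.

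**Figure D5:**
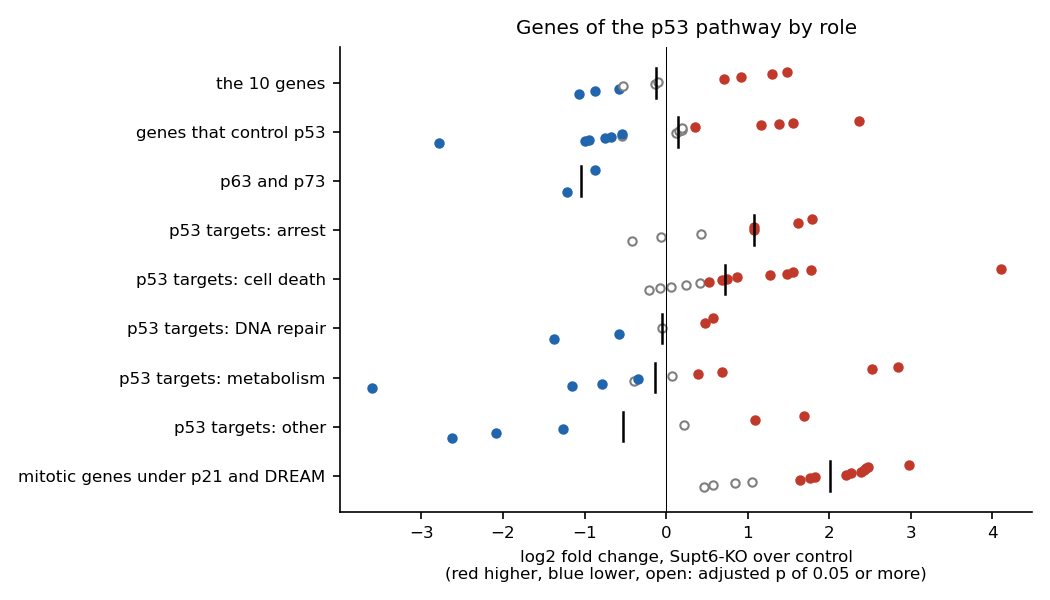
Log2 fold change, *Supt6*-KO over control, of each tested gene of the p53 pathway by role (red higher, blue lower, open not called by edgeR's quasi-likelihood test), with the median of each group as a vertical line. With these TMM factors, cell death and arrest targets have no gene called lower, while the 10 genes and the genes that control p53 are called in both directions. With library totals 3 cell death targets and 1 arrest target are lower, beside 8970 of the 16428 genes.

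Markers of the cell types that skin can hold moved with the groups. The keratinocyte markers *Krt5*, *Krt14*, *Krt1*, *Krt10*, *Trp63* and *Dsp* summed to 25850, 25110, 24750, 27720 and 25580 CPM in the controls and to 41160, 36000, 36280 and 29360 CPM in the *Supt6*-KO mice. *Krt10* led in every mouse except *Supt6*-KO mouse 4, where *Krt14* (9613 CPM) lay above *Krt10* (7774 CPM). Keratinocyte RNA was thus present in all mice, and 1 of these 6 markers was higher and 3 lower.

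Neutrophil and macrophage markers were mostly higher. Of 6 neutrophil markers 5 were higher and *Mpo* was lower, and their sum was 32.2, 42.8, 32.6, 13.9 and 15.5 CPM in the controls against 4559, 5156, 6395 and 2512 CPM in the *Supt6*-KO mice. *S100a9*, which stressed keratinocytes also express, had the highest mean of them in both groups, and *Ly6g* had 21 counts over all mice. *Csf3r*, a receptor of the neutrophil lineage, went from 0.496 ± 0.144 to 8.47 ± 2.99 CPM. Of 6 macrophage markers 4 were higher and *Csf1r* was lower (2 and 1 with library totals), with sums of 189.4, 172.7, 137.2, 173.9 and 286.2 CPM in the controls and 736.6, 782.3, 1044 and 574.6 CPM in the *Supt6*-KO mice, led by *Lyz2*.

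Markers of other skin compartments were mostly lower. All 7 hair follicle markers were lower (6 after the length correction and 6 without *Supt6*-KO mouse 4). Their sum ran widely in the controls, at 1257, 198.5, 482.8, 316.2 and 113.3 CPM, against 77.2, 77.4, 72.04 and 65.8 CPM in the *Supt6*-KO mice. Of the latter, *Cd34* alone had 75.5, 75.02, 69.84 and 64.41 CPM, and *Krt71* 0.501, 0.528, 0.274 and 0.647 CPM. Control mouse 5 had 107.6 CPM of *Cd34* and 0.687 CPM of *Krt71*, the latter close to the *Supt6*-KO mice. Of 6 fibroblast markers 4 were lower (2 after the length correction), and their sum, led by *Col3a1*, was 4710, 4222, 2929, 5949 and 10540 CPM against 2398, 2957, 3781 and 1948 CPM, so the groups overlapped. All 5 endothelial markers, led by *Pecam1*, were lower (2 of them after the length correction), at 76.8, 60.5, 47.5, 82.2 and 111.1 CPM in sum against 32.7, 32.6, 36.3 and 27.1 CPM.

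Of 5 adipocyte markers 4 were lower, although their sum, led by *Fabp4*, overlapped at 320.6, 387.1, 364.8, 269.9 and 211.6 CPM against 266.5, 288.3, 406.2 and 307.4 CPM. Of 6 skeletal muscle markers 5 were lower, with sums of 3913, 4141, 4278, 3167 and 3239 CPM against 908.4, 1189, 1022 and 704.2 CPM. *Acta1* was the most abundant of them in each control, and *Mylpf*, which was not called, in each *Supt6*-KO mouse. All 5 tested cartilage markers were lower, with sums from 314.5, 240.0, 226.5, 376.0 and 583.5 CPM in the controls to 33.5, 39.1, 34.9 and 37.4 CPM in the *Supt6*-KO mice, and the other, *Matn1*, had 1 count. *Acan* had the highest mean in the controls (154.5 CPM), and *Cnmd* in the *Supt6*-KO mice (15.35 CPM, beside 13.18 CPM for *Acan*). The part of these shifts in the changes of *Trp53*, *Mdm2*, *Cdkn1a* and the other p53 genes was not tested. The labels and the study's text name different tissues, and whether the groups differed in the piece of skin taken was not tested.

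The genes whose profiles were most like those of *Trp53*, *Cdkn1a* and *Mdm2* were found by the mean absolute difference of log2 CPM, each set relative to its control mean, over the 9 mice and among 13434 genes. They were *Sf3b4* (0.07), *Nf2* (0.08) and *Gnai2* (0.08) for *Trp53*. *Eif4enif1*, *Dync1li2* and *Pygo2* (0.07 each) were closest to *Cdkn1a*, and *Mnat1*, *Thap12* and *Tmem258* (0.06 each) to *Mdm2*. Genes on the p53 and marker lists used here, and *Supt6*, were left out of this ranking beforehand, so none of them could appear.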

How the data were processed

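Paired reads were mapped by the authors to mm10 (Bowtie2 2.3.4.3) and quantified per gene with RSEM 1.3.1. They deposited estimated counts, not normalized between mice, and TPM for 6 of the 9 mice. The submitters' notes also name HISAT and DESeq2 1.4.5. The annotation release and the use of strand are not given in the sources used here. About 9% of the estimated counts were not whole, and all were rounded. Of 17943 genes, those with at least 10 counts over all mice were tested (16428) with edgeR 4.0.16 in R 4.3.3, without covariates. TPM was used for levels only. Groups follow the sample labels, and mice are the replicates. Standard errors were taken as the absolute log2 fold change divided by the root of the test's F statistic, with 95% intervals from the normal distribution. Lengths are of the longest GENCODE vM21 transcript (17559 genes). Coordinates are GRCm38. The length correction is a loess of each sample on log10 length, used as an offset.

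The 10 genes, the pathway and marker lists and the tests were chosen with earlier results of these data known. From each list, up to 3 genes per direction with the largest change at an adjusted p under 0.05 and at least 1 CPM in the higher group are named. Genes named to complete a count, and *Csf3r*, *Ly6g*, *Mpo* and *Csf1r*, were chosen after their values were seen. Alternatives were DESeq2 1.42.0, library totals, RLE and upper-quartile factors, other filters, removal of the 50 most abundant genes, the length correction, a replicate block and each mouse left out. On simulated counts with 200 of 16317 genes changed 4-fold, edgeR recovered 99.5% and called 8 unchanged genes. Unlike these data, the simulation had few changed genes, as many up as down, and no shift in composition between groups. It therefore cannot judge the choice of scaling. Depth per mouse was 29627341 to 30967107 counts, and counts of 3 or fewer are at the floor, for counting error only.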

Additional observations from a re-analysis of the deposited data

Results flagged for a closer look

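Both values that stood apart from their group belong to *Supt6*-KO mouse 4. *Phlda3* was at 158.3 CPM in that mouse against a median of 116.6 CPM in the group, and *Zmat3* was at 27.1 CPM against a median of 19.3 CPM. In each case the gap to the nearest of the other mice took most of the group's range. In all, 44 groups of values were examined, in which chance gives about 1 in 20, or 2.2, such samples. The log2 fold change without *Supt6*-KO mouse 4 was 0.57 for *Phlda3* and -1.22 for *Zmat3*, past the threshold of edgeR's quasi-likelihood test in both.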

How the results depend on the processing

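*Supt6*, *Trp53*, *Cdkn1a*, *Mdm2* and *Eda2r* kept their direction and passed edgeR's or DESeq2's test in all 19 alternatives. With library totals alone, the log2 fold changes of *Ccng1* (0.26) and *Phlda3* (0.04) no longer passed, those of *Gdf15* (-1.19), *Trp53inp1* (-0.83) and *Sesn1* (-0.87) did, 2 members were higher (0 at least 2-fold) and 6 lower (4 at least 2-fold), the other targets were 10 higher and 17 lower, the genes that control p53 were 3 higher and 12 lower, and over all genes 2771 were higher, 1470 of them at least 2-fold, and 6802 lower by at least 2-fold, with a median of -0.76. After the length correction, *Phlda3* (0.04) and *Zmat3* (-0.20) no longer passed, *Gdf15* (-1.13) did, *Trp53inp1* (0.47) and *Sesn1* (0.07) changed sign without passing, and 1 gene that controls p53 was lower. *Trp53inp1* was at 0.00 without control mouse 4, and *Trp53inp1* (0.08) and *Sesn1* (0.06) changed sign without *Supt6*-KO mouse 4. Without that mouse, or without it and control mouse 5 (an alternative chosen after seeing the data), 2 members were lower by at least 2-fold. The causes of these shifts were not tested.

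With each mouse left out, the log2 fold changes ranged from -1.66 to -1.47 for *Supt6*, -1.24 to -0.69 for *Trp53*, -0.67 to -0.52 for *Cdkn1a*, 1.22 to 1.39 for *Mdm2*, 0.71 to 1.05 for *Ccng1*, -0.72 to -0.39 for *Gdf15*, -0.25 to 0.08 for *Trp53inp1*, 0.57 to 0.79 for *Phlda3*, 1.38 to 1.61 for *Eda2r*, -1.22 to -1.01 for *Zmat3* and -0.27 to 0.06 for *Sesn1*, and 4 members were higher and 3 lower each time, 1 to 2 of the latter at least 2-fold. Mice with the same number correlated at -0.011 to 0.243 (4 pairs), and 1 of 4 *Supt6*-KO mice correlated best with its own number, so the numbers were not taken to pair them. With the replicate block, *Trp53* was at -1.0, *Mdm2* at 1.25 and *Supt6* at -1.46, no call among the 10 changed, and 5250 genes were higher and 5801 lower. *Gdf15* had no value with at least 10 counts in every mouse.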
